A study of Mus musculus with 9 samples.

Results

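The 10 genes described here, Atf4, Atf5, Ddit3, Trib3, Asns, Psat1, Mthfd2, Fgf21, Gdf15 and Hspa5, belong to the integrated stress response and the endoplasmic reticulum (ER) stress response. They were chosen by name from the 41710 gene names of the deposited tables, and each gene is given as the sum of its transcripts. Whole hearts of male mice aged 8 months, all on the FVB/N background, were profiled by single-read sequencing of mRNA, with 3 hearts per group and 1 library per heart. Tg-RKIP mice carry an RKIP transgene, driven in the myocardium by the alpha-MHC promoter, and were described by the submitters as showing signs of heart failure. Tg-GRK2 mice are labelled as carrying a GRK2 transgene whose promoter is not given in the sources used here, and the controls are FVB mice without a transgene. RKIP, the product of Pebp1, restrains the Raf kinase and the receptor kinase GRK2, and the study asked how the cardiac transcriptome reacts to its increase. 

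The integrated stress response is a relay in which kinases that sense amino acid shortage, haem shortage, viral RNA, unfolded proteins or mitochondrial damage phosphorylate the translation factor eIF2. Most protein synthesis then slows, while the transcription factors ATF4, ATF5 and CHOP (the product of Ddit3) are translated more efficiently, so that their protein can change without their mRNA. ATF4 switches on genes of amino acid synthesis and import, tRNA charging and secreted stress hormones. The ER stress response overlaps with it through the kinase PERK and adds the sensors IRE1 and ATF6, which raise ER chaperones such as BiP, the product of Hspa5. In heart muscle, this programme is best known from mitochondrial cardiomyopathies and pressure overload.

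Binding of ATF4 and of the ER stress factors is guided by short sequence elements, and these were searched for in the RefSeq promoter windows of the mouse build GRCm38.p6, which differs from the build of the deposited tables. All 10 genes were matched, with 13 windows that run from 250 bases before the start site to 50 bases after it. The C/EBP-ATF response element was searched as TGATGNAA and the ER stress response element as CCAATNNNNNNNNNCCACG, each on both strands, and no match of one overlapped a match of the other. The following stretches are printed because they hold the matches that lie before the start site, with the matched letters in capitals and the sequence in the sense of the gene.
Asns: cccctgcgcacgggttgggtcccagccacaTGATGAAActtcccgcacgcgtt
Fgf21: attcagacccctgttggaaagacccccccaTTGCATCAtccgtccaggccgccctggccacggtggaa
Hspa5: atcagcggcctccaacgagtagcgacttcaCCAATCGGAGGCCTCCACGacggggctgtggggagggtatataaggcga

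With the start site counted as position 0, the C/EBP-ATF element of Asns spans positions -23 to -16 in the stretch at chr6:7693210-7693262, on the minus strand. That of Fgf21 reads on the opposite strand of the gene and spans positions -139 to -132, in the stretch at chr7:45615592-45615659 on the minus strand. Trib3 holds the same letters at positions 14 to 21, just inside the transcribed region. The ER stress response element of Hspa5 spans positions -65 to -47, in the stretch at chr2:34771995-34772073 on the plus strand. The ATF4-type letters occurred in 3.97% of all 32851 windows of the table, and the ER stress letters in 0.119%. Atf4, Atf5, Ddit3, Psat1, Mthfd2 and Gdf15 held neither in these windows. These are matches of letters only. Of the genes with the ATF4-type letters, Asns and Trib3 were among the members that rose and Fgf21 was hardly detected, while Gdf15, the member that rose most, held none.

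The libraries held 25458108 to 33447654 reads on transcripts, and 15504 genes had enough reads to be tested with edgeR. The transgene was visible in the Tg-RKIP libraries, where Pebp1 stood at 16371, 15967 and 16257 TPM, the length-corrected share of transcripts, against 324, 329.8 and 321 TPM in FVB. Grk2 stood at 26.4, 24.9 and 30.5 TPM in the libraries labelled Tg-GRK2 and at 27.9, 25.9 and 27.4 TPM in FVB, with a log2 fold change of 0.05 and an adjusted p of 0.354 in edgeR's quasi-likelihood test, so these libraries are named by their label. The share of reads on mitochondrially encoded genes was 11.7% ± 0.156 (SD, n = 3) in Tg-RKIP, 22.6% ± 0.299 in Tg-GRK2 and 23.1% ± 0.158 in FVB. The scalings placed the zero line of Tg-RKIP differently. The median of all genes in Tg-RKIP against FVB was 0.01 on the log2 scale with TMM normalization, which balances the bulk of the genes, 0.38 with library size only, 0.18 with library size only after the mitochondrial genes were left out, and 0.43 on the log2(TPM + 0.1) scale. Log2 fold changes below are those of TMM-normalized counts unless stated, and levels are TPM, which divide reads by transcript length.

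Most of the stress response genes were higher in Tg-RKIP hearts than in FVB. Of the 10 members, 9 passed the filter and were tested, 7 of them rose, Hspa5 fell, and Psat1 did not pass the test. These 8 calls have to be read against all genes, of which 73.9% were called in this comparison, 36.8% as higher and 37.1% as lower. The sizes were less common. Gdf15, Asns, Mthfd2, Trib3 and Atf5 passed the test and gained 1 or more in log2 units. These are 5 of the 9 members tested, while 10.2% of all genes did so. As the members were chosen with earlier results of these data known, the difference between these shares is no independent support. The same 5 passed a stricter test, glmTreat for a fold of at least 1.5, as did 23.6% of all genes. The median log2 fold change was 1.19 over the 9 members and 0.01 over all genes tested. The TPM values of the groups did not overlap for any of the 9 members, as for 78.8% of all genes, and those of normalized counts did not overlap for 8, as for 75.7%.

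**Figure D1:**
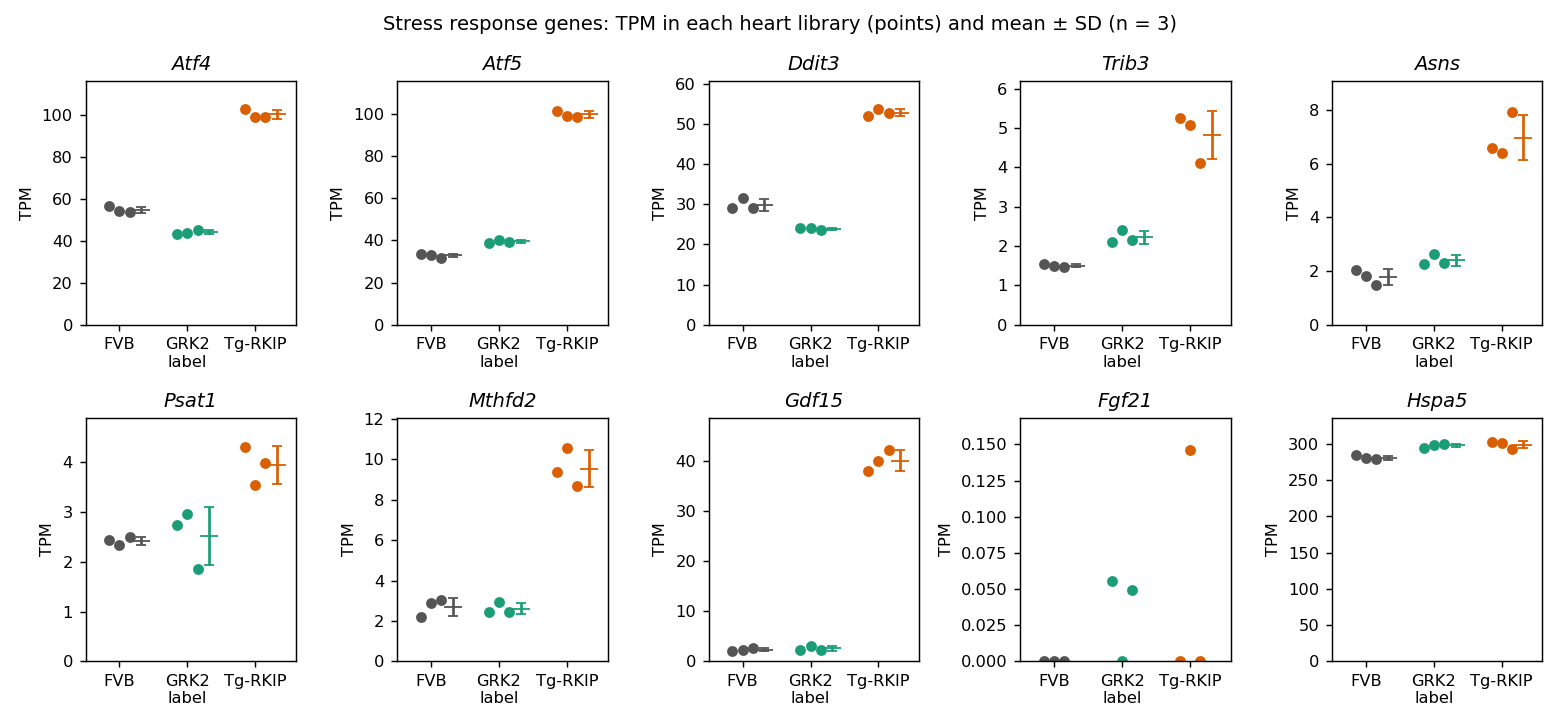
TPM (y axis, linear, from 0) of the 10 stress response genes in each of the 9 heart libraries, by group on the x axis: FVB, the libraries labelled Tg-GRK2 and Tg-RKIP. Points are libraries, the bar to their right is the mean ± SD of 3 libraries (not drawn for Fgf21), and the 3 Tg-RKIP points lie above the FVB points for each gene except Fgf21. The ratio of the Tg-RKIP to the FVB mean is greatest for Gdf15, at 17.3.

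Atf4 (chr15:80139385-80141742, plus strand, in the build GRCm39 of the deposited tables, as for the following genes) encodes the central transcription factor of the integrated stress response. Its level was 103, 99.2 and 99.3 TPM in the 3 Tg-RKIP libraries, 43.3, 43.8 and 45.1 TPM in those labelled Tg-GRK2, and 56.5, 54.1 and 53.8 TPM in FVB. No library of a group overlapped with another group, and the order was Tg-RKIP, FVB, Tg-GRK2. On normalized counts Atf4 was higher in Tg-RKIP than in FVB by 0.46 ± 0.028 (SE) on the log2 scale, with an adjusted p of 2.37e-12 by edgeR. In TPM, the ratio of the means was 1.83. The ratio in TPM was larger than that in normalized counts in each of the 9 members tested. An exact permutation test of 3 libraries against 3 cannot give a p below 0.1, the value it gave for this and each other member whose groups did not overlap.

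Atf5 (chr7:44461680-44466082, minus strand) encodes a related factor that is known for the mitochondrial unfolded protein response. It stood at 102, 99.1 and 98.4 TPM in Tg-RKIP, 38.8, 40.3 and 39.4 TPM in Tg-GRK2, and 33.5, 33.2 and 31.8 TPM in FVB. Atf5 thus lay well below Atf4 in FVB hearts, at 32.8 ± 0.866 (SD, n = 3) against 54.8 ± 1.46 TPM, while in Tg-RKIP hearts the ranges of both genes overlapped. The rise over FVB was 1.19 ± 0.029 (SE) on the log2 scale with an edgeR adjusted p of 1.69e-19. Its reads were divided between 2 transcripts, and the more abundant, ENSMUST00000047356, took 61.8 to 69.02% of them in Tg-RKIP, 53.0 to 62.1% in Tg-GRK2 and 49.6 to 64.8% in FVB. Atf5 shares 82 exonic bases with Nup62 on the opposite strand, and whether reads were counted by strand is not given in the sources used here.

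Ddit3 (chr10:127126643-127132157, plus strand) encodes CHOP, the factor linked to cell death after long ER stress. In the tables the gene is split into 2 names, and the values here are those of the entry with its 4 spliced transcripts. Ddit3 stood at 52.0, 53.7 and 52.8 TPM in Tg-RKIP, 24.0, 24.0 and 23.5 TPM in Tg-GRK2 and 29.0, 31.5 and 29.0 TPM in FVB. As with Atf4, the groups did not overlap and the libraries labelled Tg-GRK2 lay lowest. Ddit3 was higher in Tg-RKIP than in FVB by 0.42 ± 0.048 (SE) on the log2 scale, with an adjusted p of 7.74e-08 by edgeR. Adding the 489 reads of the other entry gave 0.37. Ddit3 shares 68 exonic bases with Mars1, a tRNA synthetase gene on the opposite strand. With TMM, Mars1 had a log2 fold change of -0.01 (edgeR adjusted p = 0.800), and with library size only it lay at 0.36 (adjusted p = 4.81e-08).

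Trib3 (chr2:152179342-152185952, minus strand) encodes a pseudokinase that is induced by ATF4 and CHOP and damps their activity. It was a lowly expressed member, with 53 to 63 reads in the FVB libraries, 81 to 93 in Tg-GRK2 and 138 to 223 in Tg-RKIP. Its level was 5.25, 5.09 and 4.11 TPM in Tg-RKIP, 2.11, 2.41 and 2.14 TPM in Tg-GRK2 and 1.55, 1.504 and 1.46 TPM in FVB. The groups were stepwise without overlap, with Tg-GRK2 in the middle. The log2 fold change of Tg-RKIP against FVB was 1.26 ± 0.13 (SE), with an adjusted p of 1.09e-08 by edgeR.

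The enzymes did not move as a block. Asns (chr6:7675169-7693254, minus strand) encodes asparagine synthetase, a classical ATF4 target. It stood at 6.57, 6.40 and 7.92 TPM in Tg-RKIP, 2.27, 2.62 and 2.30 TPM in Tg-GRK2 and 2.04, 1.81 and 1.48 TPM in FVB. The Tg-RKIP values all lay far above the others, and the log2 fold change against FVB was 1.49 ± 0.12 (SE) with an adjusted p of 1.53e-10 by edgeR. Mthfd2 (chr6:83282673-83302890, minus strand) encodes a mitochondrial folate enzyme that feeds one-carbon units into purine synthesis and is low in most adult tissues. It stood at 9.38, 10.5 and 8.70 TPM in Tg-RKIP, 2.45, 2.93 and 2.44 TPM in Tg-GRK2 and 2.19, 2.88 and 3.02 TPM in FVB. Here the ranges of Tg-GRK2 and FVB overlapped and Tg-RKIP stood apart, higher than FVB by 1.46 ± 0.1 (SE) on the log2 scale with an adjusted p of 1.63e-11.

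Psat1, the aminotransferase of serine synthesis, lies at chr19:15882042-15924701 on the minus strand, and whether it passed the test depended on the scaling. In TPM it stood at 4.31, 3.55 and 3.99 in Tg-RKIP, 2.74, 2.96 and 1.86 in Tg-GRK2 and 2.44, 2.34 and 2.49 in FVB, and the Tg-RKIP values lay above both other groups. In TMM-normalized counts the libraries held 153, 128 and 136 in Tg-RKIP and 130.1, 104 and 139 in FVB, so that the groups overlapped. The log2 fold change of 0.17 ± 0.13 (SE) had a 95% interval from -0.09 to 0.43 and an adjusted p of 0.235 by edgeR, an interval that holds both a small fall and a moderate rise. With library size only, the value was 0.54 with an adjusted p of 0.000478 by edgeR. Relative to the median of all genes, which removes the shift between scalings, it lay between 0.15 and 0.25 in 5 other scalings. The assignment of its reads to transcripts was uneven, and the transcript with most reads took from 10.6 to 100% of them in single libraries.

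Of the secreted hormones, Gdf15 was well detected and Fgf21 was not. Gdf15 (chr8:71082043-71085106, minus strand), a cytokine of stressed tissue that lowers food intake through a receptor in the brainstem, was the member that rose most. It stood at 38.0, 40.0 and 42.3 TPM in Tg-RKIP, 2.29, 3.15 and 2.37 TPM in Tg-GRK2 and 1.98, 2.35 and 2.63 TPM in FVB. The lowest Tg-RKIP library was far above the highest of the other 6 libraries, whose ranges overlapped. The log2 fold change of Tg-RKIP against FVB was 3.68 ± 0.092 (SE), a 12.8-fold higher normalized count, with an adjusted p of 2.47e-19 by edgeR. By this value Gdf15 ranked 96 from the top among the 15504 genes tested. Fgf21 (chr7:45263310-45264914, minus strand), a hormone of liver, muscle and stressed heart, was at or below 3 reads in each library, with 0, 3 and 0 reads in Tg-RKIP, 1, 0 and 1 in Tg-GRK2 and 0 in all FVB libraries. At this depth no difference could be detected and no fold is given.

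Hspa5 (chr2:34661982-34667559, plus strand), the ER chaperone BiP, was the most abundant member in each group, and its direction depended on the zero line. In TPM it stood at 302, 301 and 293 in Tg-RKIP, 295, 298 and 299 in Tg-GRK2 and 284, 280.5 and 278 in FVB, so that both transgenic groups lay slightly above FVB. In normalized counts the libraries held 12433, 12509.5 and 12238 in Tg-RKIP against 15632, 15577 and 15485 in FVB, without overlap and in the other direction. Hspa5 fell by 0.33 ± 0.017 (SE) on the log2 scale, with an adjusted p of 1.23e-13 by edgeR. With library size only the sign turned to 0.05, and on the log2(TPM + 0.1) scale to 0.09. Relative to the median of all genes Hspa5 was lower in each of 5 other scalings, by values from -0.34 to -0.29. Subtracting the median removes any shift common to all genes, so this near agreement follows from the subtraction and is no separate support. The 7 members that rose kept their direction in all 5, and relative to the median they lay from 0.40 for Ddit3 to 3.67 for Gdf15.

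**Figure D2:**
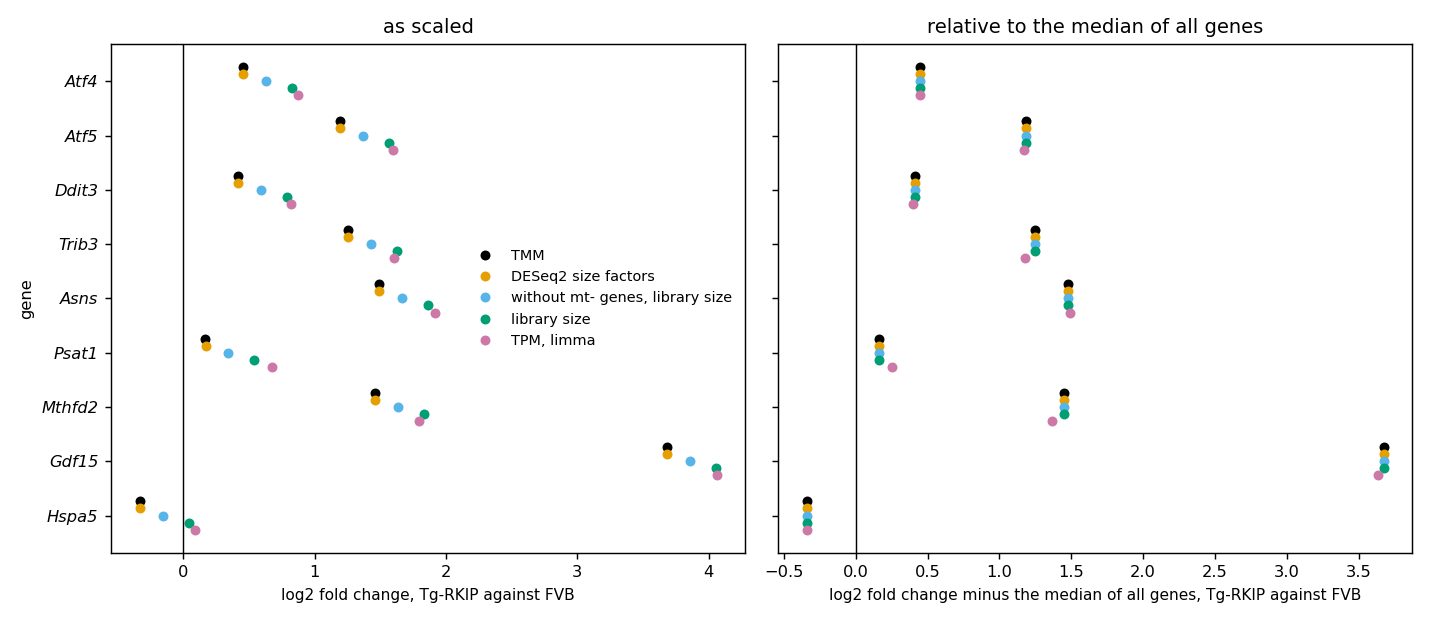
Log2 fold change of Tg-RKIP against FVB (x axis) for the 9 members tested (y axis), with 1 point per scaling, as scaled on the left and after subtraction of the median of all genes on the right. On the left the scalings to library size and TPM lie to the right of TMM, and Hspa5 crosses 0, from -0.33 to 0.09. On the right the subtraction removes any shift common to all genes, so that the scalings nearly coincide, and Hspa5 lies below 0 in each.

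In FVB hearts, the order of the mean levels was Hspa5 at 281 ± 2.74 TPM (SD, n = 3), Atf4, Atf5 and Ddit3, each apart from the next. Mthfd2, Psat1, Gdf15, Asns and Trib3 followed at 2.70 to 1.504 TPM, and neighbours in that stretch overlapped. In Tg-RKIP hearts Gdf15 had moved from this low group to the fifth place, at 40.1 ± 2.12 TPM, directly behind Ddit3 at 52.8 ± 0.822 TPM. Mthfd2 at 9.54 ± 0.931 TPM and Asns at 6.96 ± 0.836 TPM came next without overlap, and Trib3 and Psat1 overlapped at 4.82 ± 0.616 and 3.95 ± 0.380 TPM. In Tg-GRK2 the order of the first 4 genes was that of FVB, and the ranges of Mthfd2, Gdf15, Psat1, Asns and Trib3 overlapped from neighbour to neighbour.

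The libraries labelled Tg-GRK2 gave a mixed pattern. Of the 9 members tested against FVB, 2 rose, 2 fell and 5 did not pass, while 24.5% of all genes were called, 12.2% in each direction. No member passed glmTreat at 1.5-fold, where 1.0% of all genes did, and 0 members had an unadjusted p under 0.05 in it. Without that fold, DESeq2 called 4 members, beside 2673 of all 15504 genes. Limma on TPM called 6 and 5 members with pseudocounts of 0.1 and 1, beside 2587 and 2554 of the 13478 genes tested there. Atf5 rose by 0.21 ± 0.032 (SE) on the log2 scale with an edgeR adjusted p of 2.93e-05, and Trib3 by 0.51 ± 0.14 with an adjusted p of 0.0108. Atf4 fell by 0.36 ± 0.03 with an adjusted p of 9.48e-09, and Ddit3 fell by 0.36 ± 0.054 with an adjusted p of 3.58e-05. The direction of these 4 was the same in 5 other scalings, but with only the most abundant transcript of each gene Atf5 (adjusted p = 0.261) and Ddit3 (adjusted p = 0.0887) no longer passed. Asns had a log2 fold change of 0.34 with a 95% interval from 0.06 to 0.62 and an adjusted p of 0.0757, and without FVB replicate 1 the adjusted p was 0.0413 at 0.44. The intervals for Gdf15, from -0.22 to 0.43, for Mthfd2, from -0.51 to 0.02, and for Psat1, from -0.41 to 0.15, all held 0. Hspa5 differed by 0.03, with an interval from -0.003 to 0.07 and an adjusted p of 0.181, but passed at 0.08 in limma on both TPM scales, with adjusted p of 0.0150 and 0.0152.

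Compared directly, 8 of the 9 members tested were higher in Tg-RKIP than in the libraries labelled Tg-GRK2 and Hspa5 was lower, where 74.5% of all genes were called, 37.9% as higher and 36.6% as lower. At 1.5-fold, 6 members passed glmTreat, beside 24.9% of all genes. This comparison shares its Tg-RKIP libraries with the one above, as the comparisons with FVB share the controls. The log2 fold change was 3.58 ± 0.089 (SE) for Gdf15, 1.71 ± 0.1 for Mthfd2, 1.15 ± 0.11 for Asns and 0.75 ± 0.12 for Trib3. Among the transcription factors it was 0.98 ± 0.028 for Atf5, 0.82 ± 0.029 for Atf4 and 0.77 ± 0.049 for Ddit3. Atf4 and Ddit3 thus differed more from the libraries labelled Tg-GRK2 than from FVB, and Atf5 and Trib3 less, as their positions against FVB imply. Psat1 passed narrowly, at 0.30 ± 0.13 with an adjusted p of 0.0379, and no longer passed without Tg-RKIP replicate 1 (0.22, adjusted p = 0.160), without Tg-RKIP replicate 3 (0.31, adjusted p = 0.0595) or without Tg-GRK2 replicate 3 (0.19, adjusted p = 0.222). Hspa5 fell by 0.36 ± 0.017, but lay at 0.002 with library size only and at 0.006 on the log2(TPM + 0.1) scale.

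**Figure D3:**
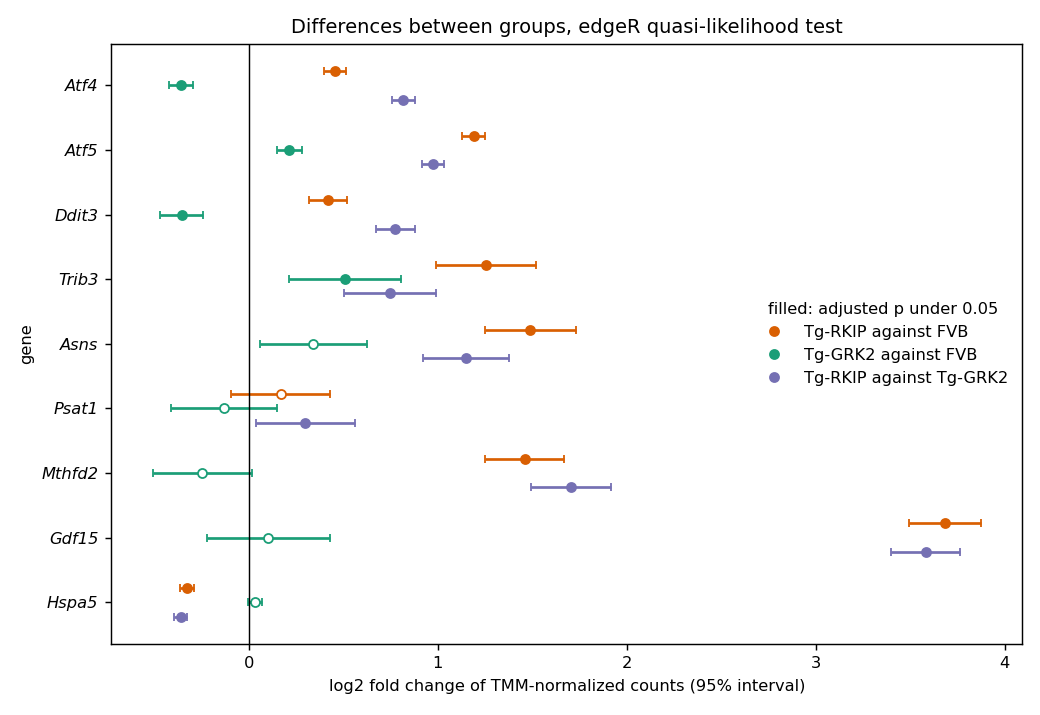
Log2 fold change of TMM-normalized counts (x axis) with 95% intervals for the 9 members tested (y axis), in 3 comparisons marked by colour. Filled points have an edgeR adjusted p under 0.05, with Gdf15 at 3.68 and 3.58 in the Tg-RKIP comparisons. Atf4 and Ddit3 lie on opposite sides of 0 in the 2 transgenic groups against FVB. Open points are Psat1 in Tg-RKIP against FVB, and Asns, Psat1, Mthfd2, Gdf15 and Hspa5 in Tg-GRK2 against FVB.

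Around the members, 145 further genes of the same pathways were examined in 11 lists, of which 140 were tested, and 70 rose and 47 fell in Tg-RKIP against FVB. These are 50.0% and 33.6% of the genes tested, beside 36.8% higher and 37.1% lower over all genes, so that the share that fell is near that of all genes. Their median log2 fold change was 0.11, against 0.01 for all genes. In the libraries labelled Tg-GRK2, 16 rose and 26 fell, with a median of -0.01. These are 11.4% and 18.6%, beside 12.2% of all genes in each direction. There, of 15 ATF4 partners and targets 4 rose and 4 fell, 26.7% each way, with Chac1 at 0.71 (edgeR adjusted p = 0.00733). Of 11 mitochondrial chaperones and proteases none rose and 5 fell, the latter 45.5%. Of 18 ER chaperone genes 3 rose and 1 fell, that is 16.7% and 5.56%, the former near the share of all genes. In Tg-RKIP against the libraries labelled Tg-GRK2, 76 rose and 46 fell. These are 54.3% and 32.9%, beside 37.9% and 36.6% of all genes.

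Upstream of ATF4, the calls of the eIF2 kinase genes depended on the scaling. Of 16 genes for eIF2, its kinases, phosphatase and exchange factor, 3 rose and 7 fell, with a median of -0.09. The 18.8% higher lie below the share over all genes, and the 43.8% lower are near it. The haem-regulated kinase gene Eif2ak1 (-0.13, adjusted p = 0.00886), the RNA-activated kinase gene Eif2ak2 (-0.12, adjusted p = 0.0207) and the amino acid sensor gene Eif2ak4 (-0.34, adjusted p = 0.00310) were lower with TMM. With library size only they turned to 0.25 (adjusted p = 2.09e-05), 0.25 (adjusted p = 3.46e-05) and 0.03 (adjusted p = 0.769), so that Eif2ak1 and Eif2ak2 were then called higher. Eif2ak3, which encodes PERK, had a log2 fold change of 0.02 (adjusted p = 0.801) with TMM and was also called higher, at 0.40 (adjusted p = 1.91e-05), with library size only. Dele1 and Oma1, which relay mitochondrial damage to the haem-regulated kinase, fell by 1.23 and 0.72 and remained below 0 in all scalings. Ppp1r15a, the stress-induced phosphatase subunit GADD34 that ends the response, rose by 0.48 ± 0.051 (SE) with an adjusted p of 2.55e-08, while its constitutive counterpart Ppp1r15b had a value of -0.07 (adjusted p = 0.139). The remaining called genes named by size were Eif2b2 (0.16) and Eif2s2 (0.13) among those higher and the alpha subunit gene Eif2s1 (-0.39) among those lower.

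Of 15 partners and further targets of ATF4 with regulatory roles, 8 rose and 3 fell, with the same direction in 5 other scalings. The 73.3% called are at the share of all genes, 73.9%. By direction, 53.3% were higher and 20.0% lower, beside 36.8% and 37.1% of all genes. Nupr1, a small stress-induced chromatin protein, went from 8.62 ± 0.453 TPM (SD, n = 3) in FVB to 63.1 ± 3.36 TPM in Tg-RKIP, with a log2 fold change of 2.51. Chac1, which degrades glutathione, rose by 1.77, and Sesn2, an inhibitor of mTORC1 signalling, by 0.96. Atf3, usually a stress-induced repressor, had a log2 fold change of -1.08 ± 0.063 (SE) with an adjusted p of 1.01e-12, and it was also lower by 1.24 in the libraries labelled Tg-GRK2. Vldlr, a lipoprotein receptor, fell by 0.92, and Vegfa, the angiogenic growth factor, by 0.69.

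Amino acid and one-carbon synthesis genes were called in both directions. Of 17 genes in the list, 16 were tested, 5 rose and 8 fell, with a median of -0.12, and 31.2% higher and 50.0% lower stand beside 36.8% and 37.1% of all genes. The 5 that rose included Phgdh (1.51 ± 0.12 (SE), adjusted p = 3.89e-10), the entry enzyme of serine synthesis, Pycr1 (1.45), the mitochondrial enzyme of proline synthesis, and Mthfd1l (0.85), which acts behind Mthfd2 in the mitochondrial folate path. Those that fell included Aldh1l2 (-1.57), a mitochondrial folate dehydrogenase, and the aspartate aminotransferases Got1 (-1.15) and Got2 (-0.90), which heart muscle holds in large amounts for the malate-aspartate shuttle. Of the 8, Mthfd1 and Mthfd2l did not keep the sign in 5 other scalings. Among 10 amino acid transporters, 7 rose and 1 fell, beside 36.8% of all genes higher, with Slc1a5 (1.30), a glutamine carrier, Slc38a1 (1.06) and Slc7a5 (0.76) in front. Slc38a2, another glutamine carrier, fell by 0.26 but turned to 0.12 with library size only. Of 20 cytosolic tRNA synthetase genes, 10 rose and 7 fell with a median of 0.07, that is 50.0% and 35.0%, the latter close to the 37.1% of all genes. Cars (0.46), Aars (0.42) and Yars (0.42) lay at the top and Wars (-0.43), Iars (-0.43) and Dars (-0.34) at the bottom. Of the 7 that fell, only Wars stayed below 0 in the 5 other scalings.

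On the ER side, Hspa5 moved apart from its list. Of 18 other ER chaperone and folding genes, 15 rose, 1 fell and 2 did not pass, beside 36.8% of all genes higher and 37.1% lower, with a median of 0.29 and the same direction of the called genes in 5 other scalings. Relative to the median of all genes, which removes the shift between scalings, 14 of the 15 stayed above 0 in each. Sdf2l1, a cofactor of BiP, rose by 0.98 ± 0.12 (SE), Creld2 by 0.63 and the secreted survival factor Manf by 0.60. Canx, the membrane lectin calnexin, fell by 0.59. Among 9 genes for ER stress sensors and their processing, 5 rose and 4 fell, that is 55.6% and 44.4%, beside 36.8% and 37.1% of all genes. The membrane-bound factors Creb3 (0.90), Creb3l1 (0.59) and Creb3l2 (0.42) rose, as did Xbp1 (0.22, adjusted p = 1.63e-05), the factor spliced by IRE1. Atf6 fell by 0.56 ± 0.024 (SE) with an adjusted p of 3.07e-15, and Mbtps2, a protease that activates it, by 0.47, both below 0 in all scalings. Ern1, which encodes IRE1, fell by 0.11 but turned to 0.27 with library size only. Summed gene counts do not show splicing of Xbp1. Of 13 tested genes of ER-associated degradation, 9 rose and 2 fell, that is 69.2% and 15.4%. Edem2 (0.98), Os9 (0.80) and Edem1 (0.39), which select misfolded glycoproteins, rose, and Herpud1, an ER stress target, fell by 0.61. Edem3 fell by 0.20 and turned to 0.18 with library size only.

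The 11 mitochondrial chaperones and proteases all fell, beside 37.1% of all genes, with a median of -0.52. However, Hspe1, Lonp1, Clpp and Htra2 did not keep the sign in 5 other scalings. Relative to the median of all genes, which removes the shift between scalings, all 11 lay below 0 in each. Hspd1 (-0.89), Hspa9 (-0.89) and Dnaja3 (-0.87), chaperones of the matrix, fell most. Of 8 genes of cell death linked to CHOP, 6 rose and 2 fell, that is 75.0% and 25.0%, beside 36.8% and 37.1% of all genes. The pro-apoptotic Bbc3 (1.13) and Bax (0.62) rose together with the anti-apoptotic Bcl2 (0.80), while Bcl2l11 fell by 0.41 and Casp12 by 0.18, the latter turning to 0.19 with library size only. Gfral, the brainstem receptor of GDF15, was listed at 0 TPM in all Tg-RKIP and FVB libraries. Its coreceptor gene Ret fell by 0.66, from 1.33 ± 0.090 TPM (SD, n = 3) in FVB to 1.14 ± 0.105 TPM in Tg-RKIP. Fgfr1 (0.96) and Fgfr2 (2.43), receptors that bind FGF21 together with beta-klotho, rose, and Klb, the beta-klotho gene, did not pass the expression filter.

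**Figure D4:**
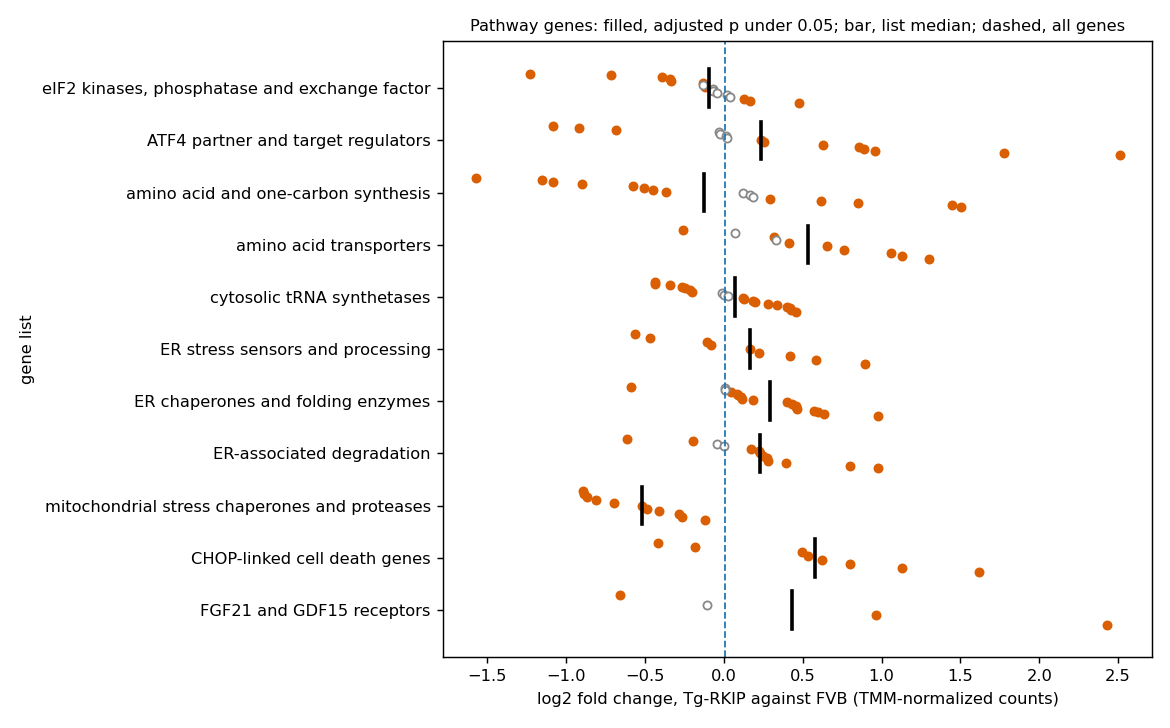
Log2 fold change of Tg-RKIP against FVB (x axis, TMM-normalized counts) for the tested genes of 11 pathway lists (y axis). Filled points have an edgeR adjusted p under 0.05, bars are list medians and the dashed line is the median of all genes. The mitochondrial list lies wholly below the line, at a median of -0.52, and 15 of the 18 ER chaperone genes are filled points above it.

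Markers of cell types also differed between the groups, but not all in the same direction. The sums below are in TPM, while the counts that rose or fell are edgeR calls on TMM-normalized counts in Tg-RKIP against FVB. In that comparison 36.8% of all genes were called higher and 37.1% lower. The 8 cardiomyocyte markers summed to 51387 to 52412 TPM in Tg-RKIP, 52817 to 54487 in Tg-GRK2 and 55550.5 to 55813 in FVB. In Tg-RKIP against FVB 7 of the 8 fell, with a median log2 fold change of -0.78, a larger fall than the sums show. The 7 fibroblast markers, all of which rose, summed to 2583 to 2602 TPM in Tg-RKIP, 1081 to 1093 in Tg-GRK2 and 941 to 977 in FVB. The 6 macrophage markers summed to 353 to 358, 146 to 150.0 and 137 to 141 TPM in the same order, and 5 of them rose and 1 fell. The 6 adipocyte markers, all higher, summed to 166 to 174, 28.01 to 31.3 and 16.3 to 17.8 TPM. The 4 smooth muscle markers, of which 3 rose and 1 fell, summed to 660 to 676, 221 to 227 and 242 to 266 TPM. The 5 endothelial markers, of which 2 rose and 3 fell, summed to 398 to 420.1, 233 to 241 and 225 to 227 TPM. The median log2 fold change of the endothelial markers was -0.46 in Tg-RKIP against FVB, although their TPM sum was higher.

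Markers listed for cartilage, airway, plasma cells, erythrocytes and hepatocytes were also read, and the source of these transcripts was not tested. The 6 cartilage markers, of which the 5 tested all rose, summed to 327 to 334 TPM in Tg-RKIP, 10.4 to 10.9 in Tg-GRK2 and 10.04 to 10.8 in FVB. The 6 airway markers summed to 62.3 to 64.3, 149 to 157 and 0.113 to 0.639 TPM, with 3 of the 6 genes at 0 in all FVB libraries. The 5 plasma cell markers summed to 31.9 to 33.3, 9.96 to 11.1 and 5.98 to 6.77 TPM, and the 5 erythrocyte markers, all higher, to 3477 to 3645, 1665 to 1690 and 739 to 753 TPM. The 5 hepatocyte markers stayed at 3.26 to 3.58, 0.357 to 1.54 and 2.33 to 4.16 TPM, with 2 of them at 0 in all Tg-RKIP libraries. The part of these cell types in the members' values was not tested, and in whole hearts fewer cells of a type and less RNA per cell cannot be told apart.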

How the data were processed

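Per the labels, mRNA was fragmented, copied with random hexamers and sequenced as single reads of 50 bases. The authors deposited read counts per transcript, as whole numbers without normalization, and TPM values, which correct reads for transcript length and set each library to the same total. TPM recomputed from the counts differed by at most 5.5e-06. The submitters' processing notes name the build GRCm39, while the aligner and counter are not given in the sources used here. Reads and TPM were summed by gene name, and Ddit3 was matched to its split entry by transcript identifiers. The tests on counts used edgeR 4.0.16 under R 4.3.3 (TMM, filterByExpr, glmQLFit, glmQLFTest, 9 libraries, 1 mean for each group), with Benjamini-Hochberg adjustment over 15504 genes and a threshold of 0.05. The script was tested on simulated data. Library pairs of a group were not identical, and their median squared difference was 1.37 to 1.53 times that of sampling noise. The common coefficient of variation within groups, beyond counting noise, was 2.86% in edgeR. The p-values rest on this small spread, and how far it represents the spread between animals was not tested. Fgf21, at or below 3 reads in each library, did not pass filterByExpr and was not tested in the main fit. Without a filter it was tested and not called in any comparison. Alternatives used DESeq2 1.42.0, limma 3.58.1, other scalings and filters, and each library left out in turn. From each pathway list the up to 3 genes with the largest and smallest log2 fold change in Tg-RKIP against FVB were named, among those past the threshold whose higher group averaged 100 counts or more, beside the members, kinases, phosphatase subunits and ER transducers. Receptors near 0 were named after their values were seen. The members, lists and tests were chosen with earlier results of these data known.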

Additional observations from a re-analysis of the deposited data

How the results depend on the processing

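The log2 fold change of Hspa5 turned with the scaling. In Tg-RKIP against FVB it was 0.0467 with library size only, 0.0887 on the log2(TPM + 0.1) scale and 0.0884 on the log2(TPM + 1) scale (limma), and against Tg-GRK2 it was 0.00173, 0.00589 and 0.00587. For Psat1, the most abundant transcript gave -0.0940 in Tg-RKIP against FVB, and TPM gave 0.0274 and 0.0256 in Tg-GRK2 against FVB. For Gdf15, Tg-GRK2 against FVB turned to -0.0513 without Tg-GRK2 replicate 2, the lowest of 6 values up to 0.20. The cause was not tested. Psat1 in Tg-RKIP against FVB passed with library size only (0.54), without mitochondrial genes (0.34) and on both TPM scales (0.68 and 0.53), and its difference from Tg-GRK2 did not pass in DESeq2 (adjusted p = 0.0990). With library size only, 9710 of 12359 called genes were higher in Tg-RKIP than in FVB, against 5709 of 11460.

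A required fold of at least 1.5 (glmTreat), a stricter test by its construction, left 5 of 9 tested members in Tg-RKIP against FVB. It left 34 of 140 tested pathway genes there, a share near that of all genes, of which 3665 (23.6%) passed. In Tg-GRK2 against FVB it left 0 members and 155 of all genes (1.0%), where edgeR without this requirement called 4 members. In Tg-RKIP against Tg-GRK2 it left 3867 of all genes (24.9%). The most abundant transcript gave 2 members and 1665 genes in Tg-GRK2 against FVB, with Atf5 and Ddit3 no longer passing. Hspa5 passed there on both TPM scales (0.0828 and 0.0825). Leaving out each library in turn gave 8 called members in Tg-RKIP against FVB, 4 to 5 in Tg-GRK2 against FVB and 8 to 9 in Tg-RKIP against Tg-GRK2. Of all genes, 11012 to 11133, 3114 to 3303 and 11156 to 11231 were called in the same order. Same-numbered libraries of different groups correlated between -0.041 and 0.042 in their deviations from the group means, and 0 of 9 pairs exceeded 0.1. The main fit did not pair them. A low correlation over all genes cannot exclude a shared batch that affects part of the genes. With the replicate block, 8, 4 and 9 members were called in the 3 comparisons, beside 11401, 3660 and 11491 of all genes. Low reads limit Fgf21 most, and in FVB and Tg-GRK2 also Gdf15, Trib3, Asns, Mthfd2 and Psat1.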
